A study of Homo sapiens with 2 samples.

Results

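OTX2 binding was examined at 10 genes of the Notch pathway: the receptors NOTCH1, NOTCH2, NOTCH3 and NOTCH4, the ligands DLL1, DLL3, DLL4, JAG1 and JAG2, and the target gene HES1. They were chosen by name out of 19881 protein-coding genes, and every OTX2 binding peak that touched the gene record, extended by 50 kb on each side, was counted as theirs. That gave 86 of the 137412 peaks. The data came from D283 cells, an established medulloblastoma cell line, grown as tumorspheres that express OTX2. The paper calls them OTX2-high, a name it also gives to the scramble siRNA controls of its expression arrays. The series held 1 library from a chromatin immunoprecipitation with an OTX2 antibody and 1 input library from the same line, so it had no replicates and no sample with reduced OTX2. Peaks and levels are therefore given as a description of these libraries, and no test between conditions was possible.

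Notch receptors sit in the membrane and are activated by Delta-like or Jagged ligands on a neighbouring cell. Binding leads to cleavage of the receptor first by an ADAM protease and then by gamma-secretase, and the freed intracellular domain joins RBPJ and a Mastermind coactivator on DNA to switch on targets such as HES1, a repressor of neuronal differentiation genes. In the developing cerebellum this pathway is known for keeping granule neuron progenitors undifferentiated. OTX2 is a homeodomain transcription factor of the forebrain, midbrain and hindbrain that binds TAATCC and related motifs.

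The ChIP library held 84980793 fragments, of which 61259377 stayed after duplicate removal, and the input library held 32292980, of which 22521186 stayed. Each peak has a pileup, which is the scaled coverage at its summit, and a fold enrichment over the local input, which is given on the same scale as the pileup. Every deposited pileup was a whole multiple of 0.735 within a tolerance of 0.02 fragments. The step of 0.735 is 2 times the ratio of input to ChIP fragments kept (0.368). It was taken as 1 fragment, a reading that the file header does not state, and pileups are also given as ChIP fragments at the summit, with exact Poisson 95% intervals that cover counting error only. Over all peaks the median was 53 fragments and the median fold enrichment was 6.10. For the 86 peaks these medians were 51 fragments and 6.62. A fold enrichment of 10 or more was reached by 22.1% of the 86 peaks and by 26.4% of all peaks. The peaks at these 10 genes were thus of ordinary height and enrichment for this library.

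The promoters that a peak covered are shown first, because they are the stretches of DNA that the peaks near a TSS refer to. The RefSeq promoter table (GRCh38.p14) holds a window of 300 bases, from 250 before to 50 after the start, for 8 of the 10 genes. DLL1 and DLL3 were not matched. A peak overlapped the window of 4 of the 8 genes, against 37.8% of 22199 promoter windows of protein-coding genes. The 250 bases before the start are printed for these 4 genes, 5′ to 3′ on the strand of the gene. Capitals mark the letters TGGGAA, the core of the RBPJ motif.
HES1 promoter, chr3:194135898-194136147, plus strand: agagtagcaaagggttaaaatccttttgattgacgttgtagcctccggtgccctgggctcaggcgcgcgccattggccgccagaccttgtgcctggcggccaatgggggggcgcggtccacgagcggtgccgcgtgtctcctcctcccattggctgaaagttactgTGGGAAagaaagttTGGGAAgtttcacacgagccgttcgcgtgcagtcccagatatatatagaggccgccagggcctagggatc
NOTCH1 promoter, chr9:136546049-136546298, minus strand: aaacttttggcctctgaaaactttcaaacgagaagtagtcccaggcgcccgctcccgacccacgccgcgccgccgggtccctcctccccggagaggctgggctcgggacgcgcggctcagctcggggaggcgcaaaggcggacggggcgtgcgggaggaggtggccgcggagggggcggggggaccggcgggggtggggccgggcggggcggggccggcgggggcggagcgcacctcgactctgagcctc
NOTCH2 promoter, chr1:120069663-120069912, minus strand: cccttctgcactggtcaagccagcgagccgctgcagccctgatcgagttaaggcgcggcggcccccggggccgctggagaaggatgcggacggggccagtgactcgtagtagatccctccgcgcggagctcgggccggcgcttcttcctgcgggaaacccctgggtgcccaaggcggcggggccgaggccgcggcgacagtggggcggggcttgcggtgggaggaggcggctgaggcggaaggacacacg
DLL4 promoter, chr15:40929090-40929339, plus strand: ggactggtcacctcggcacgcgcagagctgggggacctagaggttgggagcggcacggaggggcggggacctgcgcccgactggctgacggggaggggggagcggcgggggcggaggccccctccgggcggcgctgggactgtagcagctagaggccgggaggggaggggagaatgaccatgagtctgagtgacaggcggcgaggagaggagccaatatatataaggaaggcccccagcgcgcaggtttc

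The motif TGGGAA was searched on both strands, and 22.7% of the 22199 windows held it. Among the 8 Notch genes, HES1 was the gene whose window held it. It did so in 2 places on the strand of the gene, starting 84 and 70 bases before the start and thus 14 bases apart. The same letters stood at least 2 times on a strand in 2.14% of the windows. The OTX2 peak at the HES1 start covered all 250 printed bases, the marked letters included. Other forms of the RBPJ motif were not searched, and whether RBPJ binds at the marked letters was not tested. The peaks covered 172 of the printed bases at NOTCH1, 192 at NOTCH2 and 44 at DLL4. The OTX2 motifs TAATCC and TAATCT, also searched on both strands, were in 5.47% and 5.71% of the windows, and in neither form in the windows of the 8 Notch genes (0 of 8, against 10.6% of windows with either). That count says only that these letters are not in these windows.

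The TSS window began 5 kb before and ended 2 kb after the TSS, taken as the first base of the gene record. It held a peak for 5 of the 10 genes: NOTCH1, DLL3, DLL4, JAG1 and HES1. Over all protein-coding genes the share was 57.2%, so the count for the Notch genes was near the background. The choice of start mattered for a pair of genes. The GENCODE records of NOTCH2 and DLL1 begin 31117 bp and 15487 bp upstream of the canonical transcript, and both had a peak at the start of that transcript, which made 7 of 10, against 58.5% of protein-coding genes. Counted at the start of any annotated transcript, 8 of 10 genes had a peak, NOTCH4 included, against 66.6% of protein-coding genes. The NOTCH4 peak that counted there lay in its last exon, 85 bp upstream of the GPSM3 TSS. Away from the TSS window, 5 of 10 genes had a summit in the gene record, against 53.9%. All 10 had a peak in the extended record, as did 94.1% of protein-coding genes.

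**Figure D1:**
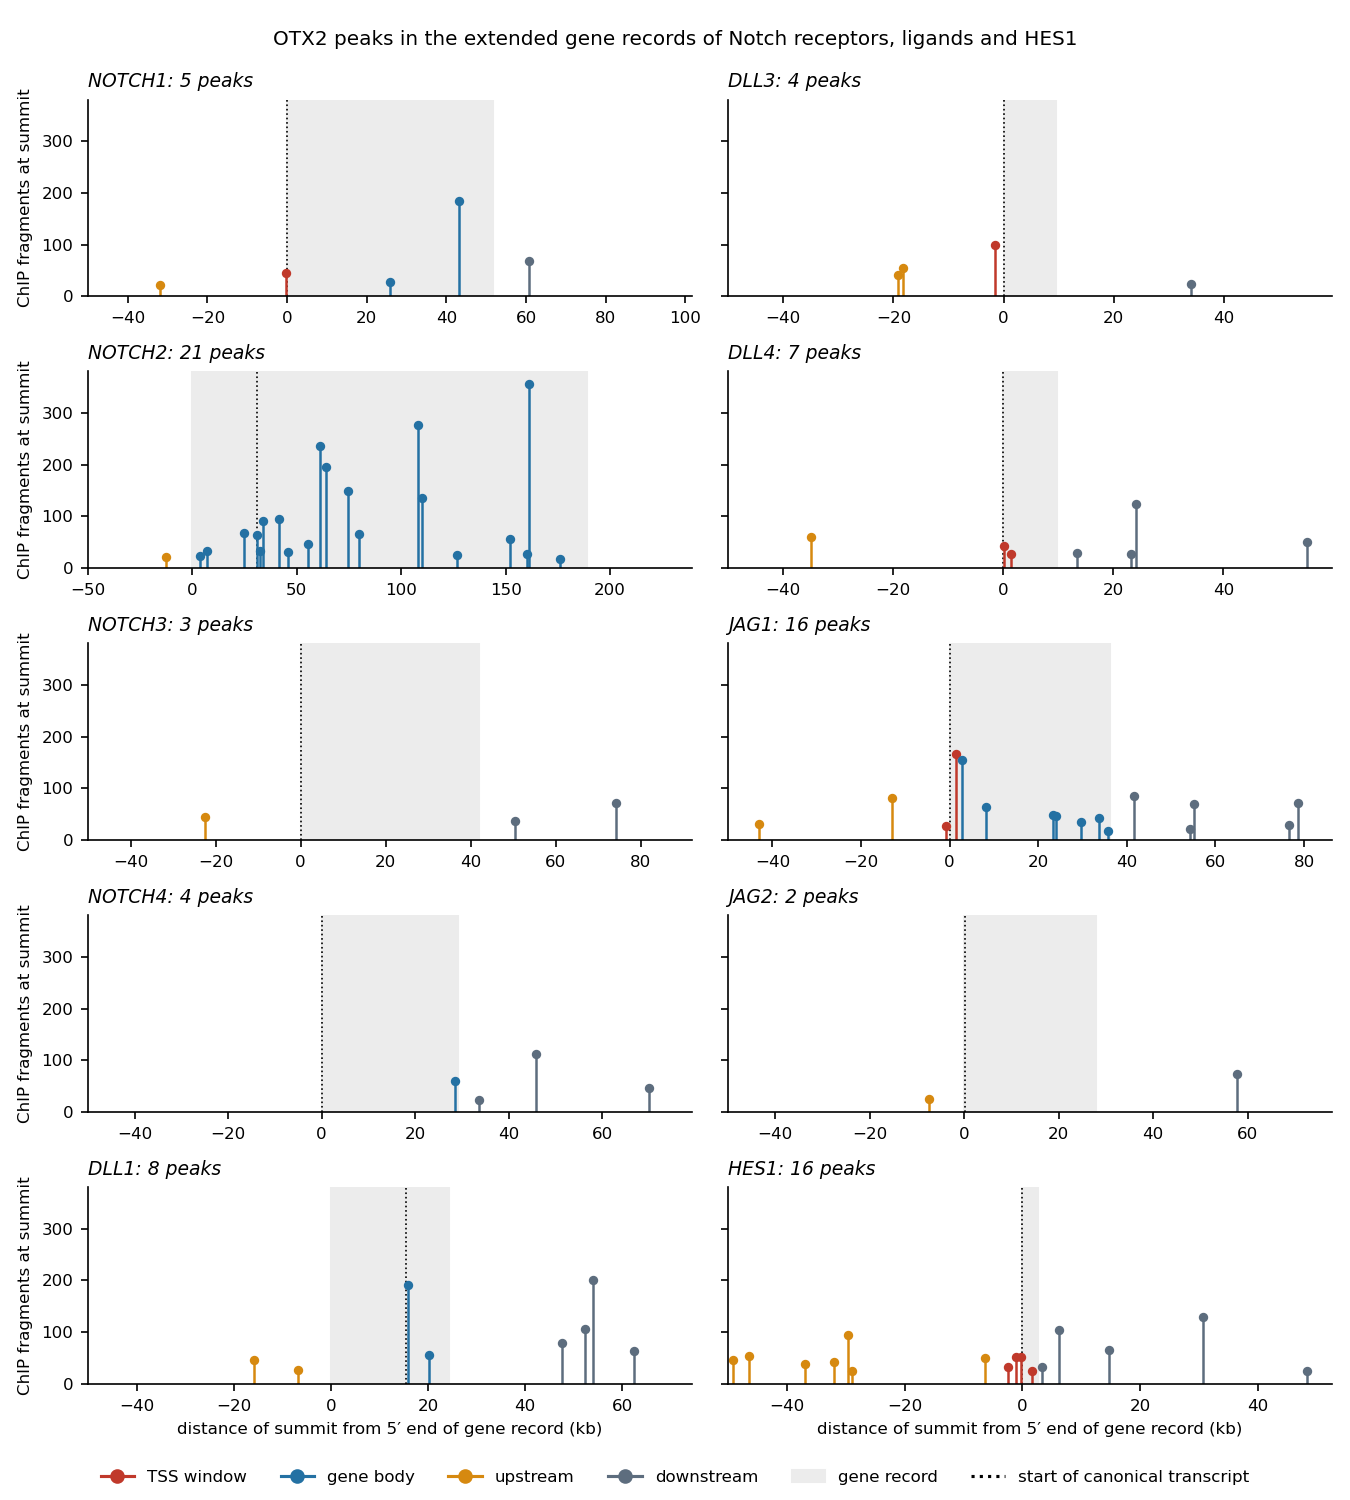
Each stem is an OTX2 peak at its distance from the 5′ end of the gene record (kb, negative upstream), with its height in ChIP fragments at the summit, coloured by position; grey marks the gene record and the dotted line the start of the canonical transcript. The tallest stems stand inside NOTCH2 (355 and 277 fragments), while NOTCH3, DLL3 and JAG2 have stems outside the gene record only.

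The 10 genes covered a wide range of peak density. HES1 had 16 peaks in 102.6 kb, or 15.6 per 100 kb, and 98.3% of protein-coding genes had a lower density. JAG1 followed with 16 peaks and 11.7 per 100 kb, above 92.9% of genes. NOTCH2 had 21 peaks in 289 kb, or 7.26 per 100 kb, above 70.1% of genes. DLL1 and DLL4 stood side by side at 6.43 and 6.38 per 100 kb. The others lay under the median of all protein-coding genes, which was 5.12 per 100 kb. DLL3 had 3.65, NOTCH1 3.30 and NOTCH4 3.10 per 100 kb. NOTCH3 had 3 peaks and 2.11 per 100 kb, and JAG2 had 2 peaks and 1.56 per 100 kb, so that 14.6% of genes had a lower density than JAG2. The median of the 10 genes, 5.02 per 100 kb, was close to that of all genes. With counts this small, neighbours such as DLL1 and DLL4, or NOTCH1 and NOTCH4, cannot be ranked against each other.

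**Figure D2:**
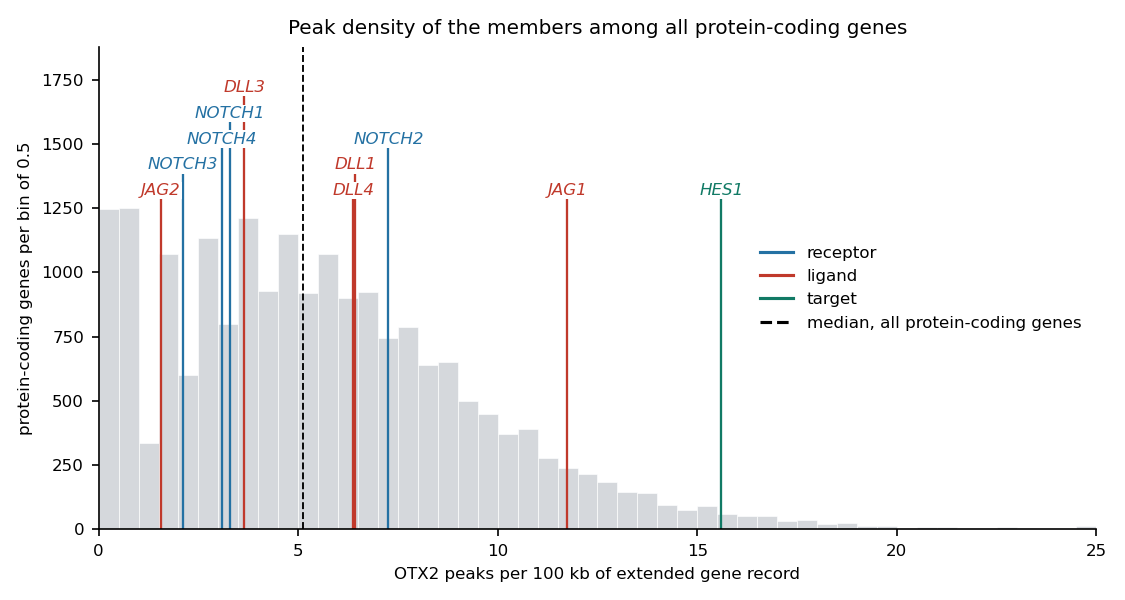
Grey bars give the number of protein-coding genes by OTX2 peaks per 100 kb of extended gene record in bins of 0.5, the last bar also holding genes above 25; coloured lines mark the 10 Notch genes by role and the dashed line the median of 5.12. HES1 (15.6) and JAG1 (11.7) stand in the right tail, and JAG2 (1.56) and NOTCH3 (2.11) on the left.

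Among the receptors, NOTCH1 had 5 peaks. The peak at its start, chr9:136546127-136546558, peaked 229 bp upstream of the TSS, with a pileup of 33.1 or 45 fragments (32.8 to 60.2) and a fold enrichment of 6.84. This was close to the median of 6.39 over the strongest TSS peaks of all genes that had one. The long non-coding gene NALT1 also starts within 1 kb of this summit. A far taller peak, chr9:136502496-136503091, stood 43.3 kb into the gene in intron 27 of the canonical transcript, 48 bp from the start of another annotated NOTCH1 transcript. Its pileup of 136 amounted to 185 fragments (159 to 214), and its fold enrichment of 27.4 was higher than that of 97.7% of all peaks. The rest were a low peak in intron 4 (27 fragments, fold enrichment 4.18), a low peak 32.0 kb upstream (22 fragments, 3.45) and a peak of 68 fragments downstream of the gene, 1470 bp upstream of the SEC16A TSS. NOTCH1 thus carried a modest peak at its start and its strongest one deep in the gene body.

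NOTCH2 carried the strongest peaks of all 10 genes. The peak in intron 19, chr1:119939160-119940150, had a pileup of 261, or 355 fragments (319 to 394), and a fold enrichment of 41.7. Of all peaks, 99.8% had a lower fold enrichment. In intron 4 the peak chr1:119992457-119993433 reached 277 fragments (245 to 312) and a fold enrichment of 34.2, and a neighbour in the same intron had 136 fragments and 12.6. Intron 1 held peaks of 236 fragments with a fold enrichment of 23.5 and of 195 fragments with 18.1. In total 15 of the 21 NOTCH2 peaks lay in introns of the canonical transcript and 7 had a fold enrichment of 10 or more. The gene had no peak at the 5′ end of its record. At the start of the canonical transcript, however, a peak stood 65 bp upstream (64 fragments, 7.53), followed by peaks 1090 bp downstream (33 fragments, 3.96) and 2487 bp downstream (91 fragments, 10.5). The last of these reached into the TSS window with its edge only.

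The 5′ part of NOTCH2 is duplicated in the human genome, and its partial copies NOTCH2NLA, NOTCH2NLB, NOTCH2NLC and NOTCH2NLR also carried peaks, so the identity of reads in this part of NOTCH2 is uncertain. The copies had 7, 8, 20 and 14 peaks, with a highest fold enrichment of 9.28, 9.84, 20.3 and 24.1. Distances from the start of the canonical transcript were compared within 1 kb. All 12 NOTCH2 peaks in the stretch from 1 kb before the start to 82.8 kb after it, the length of the longest copy record, had a peak at a like distance in at least 1 copy, and 4 of them had one in all 4 copies. With up to 20 peaks in a copy, unrelated positions can also match within 1 kb in at least 1 copy. The share expected for such positions was not computed, so the count of 12 does not show shared reads. The peak 30.0 kb into NOTCH2 (236 fragments) was one of those 4, and its counterparts had between 82 and 252 fragments. The intron 4 peak of 277 fragments had counterparts of 39 to 243 fragments in 3 copies. The intron 19 peak of 355 fragments, 130 kb from the start, was among 5 NOTCH2 peaks beyond the length of every copy. Another 3 peaks in the NOTCH2 record lay upstream of the compared stretch, and only peaks at the copy records were compared. How many fragments of any NOTCH2 peak came from the copies was not tested.

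**Figure D3:**
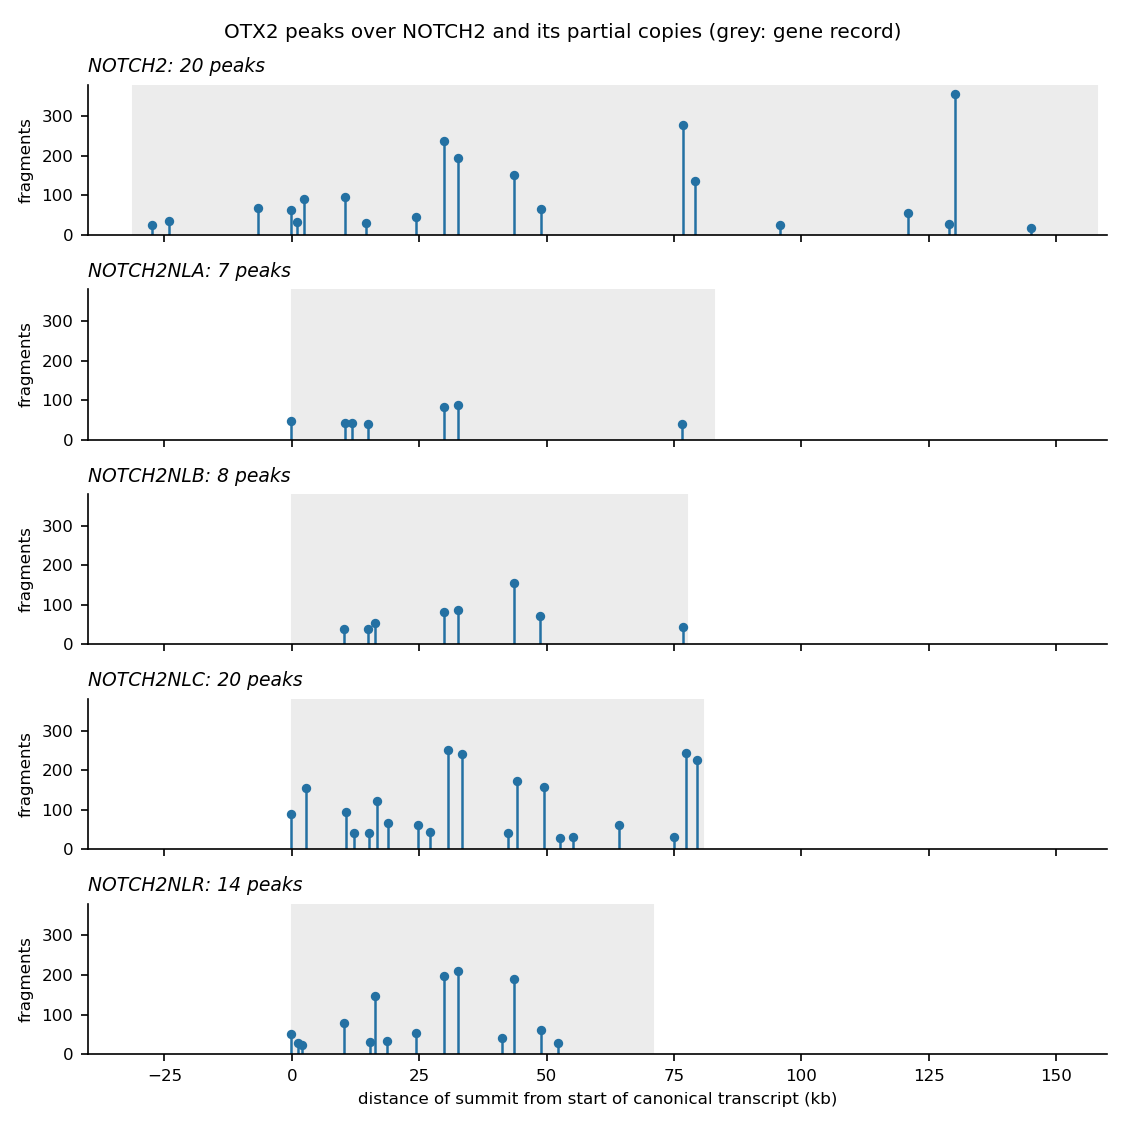
Each row shows the OTX2 peaks over NOTCH2 or a partial copy by distance from the start of the canonical transcript (kb) and height in ChIP fragments at the summit, with the gene record in grey. Peaks near 10, 30 and 33 kb recur in all 5 rows, and the tallest NOTCH2 peak, 355 fragments at 130 kb, lies beyond the copies.

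NOTCH3 and NOTCH4 had few peaks, and most of them lay at other genes. All 3 peaks of NOTCH3 lay outside the gene, and the tallest (72 fragments, 56.3 to 90.7, fold enrichment 8.99) stood 998 bp upstream of the TSS of ILVBL, an acetolactate synthase-like gene. The others had 37 fragments, 50.3 kb from the NOTCH3 start, and 44 fragments, 22.5 kb upstream of it. NOTCH4 lies in the gene-dense major histocompatibility region, and its 4 peaks all fell in the TSS windows of other genes. The tallest, 113 fragments (93.1 to 136) at a fold enrichment of 12.3, was centred 18 bp before the start of AGPAT1, an acyltransferase of phospholipid synthesis. A peak of 60 fragments (fold enrichment 8.66) lay in the last exon of NOTCH4, exon 30, and 85 bp upstream of the TSS of GPSM3. Peaks of 24 and 47 fragments stood at PBX2 and PPT2-EGFL8. For all 3 peaks of NOTCH3 and all 4 of NOTCH4 the nearest protein-coding TSS was that of another gene.

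Among the ligands, DLL1 had 8 peaks. The tallest at the gene, chr6:170290222-170290955, lay in exon 1 of the canonical transcript, 484 bp downstream of its start, with a pileup of 140, or 191 fragments (165 to 220), and a fold enrichment of 23.6. The same summit was 109 bp upstream of the TSS of FAM120B, which is transcribed the other way, so the peak lies at the starts of both genes. A peak in intron 4 had 57 fragments and a fold enrichment of 8.61, and its summit was 4292 bp upstream of the FAM120B TSS. Downstream of DLL1 stood a group of 4 peaks with 201, 107, 79 and 63 fragments, 32.2 to 47.0 kb from the canonical start. For all 4 of them the nearest protein-coding TSS was that of FAM120B. The peaks upstream of the DLL1 record, with 27 and 47 fragments, lay in FAM120B. The tallest of the downstream group had more fragments than the exon 1 peak, but its fold enrichment was 12.4, because the local input was 11.0 units of pileup there against 5.00 at exon 1.

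DLL3, a ligand found largely inside the cell and known mainly as an inhibitor of Notch signalling, had the highest fold enrichment in a TSS window, as long as the window was placed at the gene record. At canonical starts the DLL1 peak in exon 1 was higher. The peak chr19:39497061-39497471, 1627 bp upstream of the TSS, had a pileup of 72.8, or 99 fragments (80.5 to 121), and a fold enrichment of 14.2. Of the genes with a TSS peak, 88.5% had a strongest TSS peak of lower fold enrichment. The other 3 DLL3 peaks fell in the TSS windows of TIMM50 (42 and 55 fragments) and EID2B (23 fragments).

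DLL4, the Delta-like ligand best known from blood vessels, had a pair of modest peaks at its start. One lay in exon 1, 81 bp downstream of the TSS (43 fragments, 31.1 to 57.9, fold enrichment 6.54), and the other 1397 bp downstream (28 fragments, 4.33). The tallest peak in the extended record, at 124 fragments (103 to 148) and 15.4-fold enrichment, was 24.0 kb downstream of the DLL4 start and 417 bp into CHAC1, a glutathione-degrading enzyme gene. The other 4 peaks included one at the VPS18 start (61 fragments) and one in INO80 (51 fragments).

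JAG1 had 16 peaks, and its own TSS was the nearest protein-coding start for all of them. The tallest, chr20:10672252-10672869, lay in intron 2, 1375 bp downstream of the TSS, with a pileup of 123, or 167 fragments (143 to 194). Its neighbour in the same intron, chr20:10670972-10671666, was 2736 bp downstream and had 155 fragments (132 to 181). The intervals of these heights overlap, but the fold enrichments were 8.25 and 19.2. The local input was 14.0 units of pileup under the first and 5.00 under the other, and 95% of all peaks had a local input of 11.0 or less. The order of the peaks therefore depends on whether height or enrichment is read. A peak 804 bp upstream of the TSS had 28 fragments, and a peak 12990 bp upstream had 82 fragments (65.2 to 102) and a fold enrichment of 12.3. Past the 3′ end, 5 peaks with 21 to 85 fragments stood in the neighbouring gene SLX4IP.

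JAG2 had the fewest peaks, and none in the gene. One stood 7436 bp upstream of the TSS in NUDT14 (25 fragments, 16.2 to 36.9, fold enrichment 3.89), and the other 57.8 kb downstream of the TSS (73 fragments, 57.2 to 91.8, 7.81). The Jagged ligands thus stood at the 2 ends of the ligand list, with 16 and 2 peaks in extended records of 136 kb and 128 kb.

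HES1 had many peaks of moderate height, spread over a stretch with no other protein-coding start. Its gene record is 2585 bp long, and all 16 peaks had the HES1 TSS as the nearest protein-coding start, the next being more than 166 kb away from every summit. Near the TSS there were 4 peaks, a number that 1.65% of protein-coding genes reached or passed. Their summits lay 2410 bp, 1033 bp and 231 bp upstream and 1609 bp downstream of the TSS. They had 33, 52, 53 and 26 fragments. None of them was strong: the fold enrichments were 4.91, 5.54, 4.04 and 3.88, all under the median of 6.10 for all peaks. The peak that covers the printed promoter, chr3:194135826-194136325, had a pileup of 39.0, or 53 fragments (39.7 to 69.3), over a local input of 8.89 units of pileup. The long non-coding gene ENSG00000289385 starts within 1 kb of the middle pair of summits.

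The tallest HES1 peaks were outside the gene. The peak with the highest fold enrichment, chr3:194141783-194142861, stood 6260 bp downstream of the TSS and past the 3′ end, with a pileup of 77.2, or 105 fragments (85.9 to 127), and a fold enrichment of 15.7. The tallest one, chr3:194166485-194167158, was 30.7 kb downstream at 130 fragments (109 to 154) and 9.12-fold enrichment over a local input of 9.59 units of pileup. Of the 16 peaks, 10 lay upstream and 6 downstream of the TSS. The upstream ones reached 49.2 kb and had 25 to 94 fragments. A single HES1 peak had a fold enrichment of 10 or more, so its high peak density went with mostly moderate enrichment.

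Sorted by position, the 86 peaks comprised 10 in TSS windows, 32 in gene bodies, 18 upstream and 26 downstream of the genes. The median height was 44 fragments in TSS windows, 58.5 in gene bodies, 43.5 upstream and 66.5 downstream, and the median fold enrichments were 5.23, 7.14, 5.51 and 7.85. The TSS class rests on the start that is used: at canonical transcript starts it comprised 14 peaks with a median fold enrichment of 6.04. Of the 19 peaks with a fold enrichment of 10 or more, 10 lay in gene bodies and 1, at DLL3, in a TSS window, or 3 at canonical starts, where a DLL1 and a NOTCH2 peak joined it. NOTCH2 held 7 of the 19, of which 6 lay in the stretch that was compared with its partial copies, and JAG1 held 5. Receptors and ligands had like medians of 6.84 and 6.98, and HES1 had 5.69. The TSS windows of other genes held 14 of the 86 peaks, and for 32 of the 86 the nearest protein-coding TSS was that of another gene. No matching share over all protein-coding genes was computed for the counts by position or nearest TSS, so they only describe these peaks. The local input lay at its floor of 3.98 units of pileup for 30.2% of the 86 peaks and 26.4% of all peaks.

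**Figure D4:**
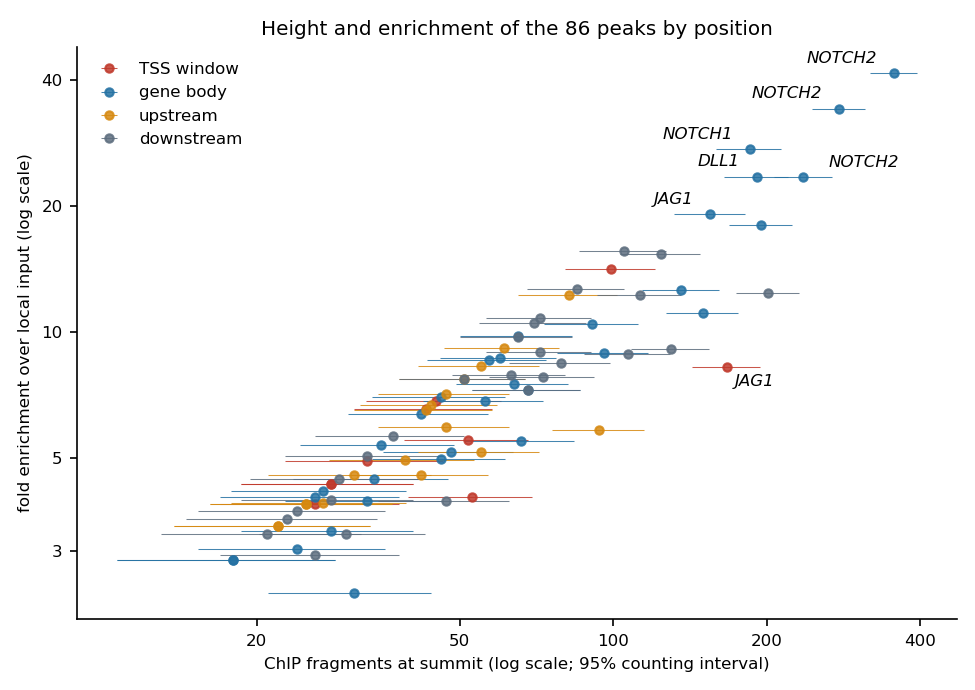
Each point is 1 of the 86 peaks, with ChIP fragments at the summit (log scale, bars are 95% counting intervals) against fold enrichment over the local input (log scale), coloured by position. The NOTCH2 gene-body peaks are at the top right (41.7 and 34.2), and the labelled JAG1 peak in the TSS window has 167 fragments at a fold enrichment of 8.25.

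The other genes of the pathway were counted from a list of 45 genes in 6 roles. Of these, 30 had a peak near the TSS, or 66.7%, beside 57.2% of all protein-coding genes and 5 of the 10 receptors, ligands and HES1. Whether the peaks of this list also lay at the starts of other genes was not examined. Among the proteases that cleave the receptor, 7 of 8 had one. The strongest belonged to APH1A, a gamma-secretase subunit (270 fragments, fold enrichment 19.3), followed by NCSTN, which encodes nicastrin (105 fragments, 9.45), and the weakest to PSEN2, a presenilin (34 fragments, 2.36). APH1B, the paralog of APH1A, had none there and 1 at the start of another transcript. In the nuclear complex, 7 of 8 genes had a TSS peak, led by the acetyltransferase gene EP300 (fold enrichment 10.8) and the coactivator MAML1 (9.50), with the acetyltransferase gene KAT2B lowest (4.89). RBPJ itself had none at the 5′ end of its record and 3 at the start of another transcript, the most at any single RBPJ start.

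Genes that handle the ligand and receptor at the membrane had a TSS peak in 8 of 11 cases. NUMB, an inhibitor of Notch, had the highest fold enrichment (8.73), then the ubiquitin ligase MIB2 (7.52), with NEURL1B lowest (2.66), and NEURL1, DTX1 and DTX4 had none. Of the enzymes that add sugars to the receptor, POFUT1 had a strong TSS peak (144 fragments, fold enrichment 15.6). POGLUT1 had 3 weak ones, the strongest with a fold enrichment of 3.89. The Fringe genes LFNG, MFNG and RFNG had none, and neither had the non-canonical ligands DLK1, DLK2 and DNER, although DNER had 1 at the start of another transcript. Both sets are small, with 3 genes each. Among the other HES and HEY target genes and NRARP, 6 of 10 had a TSS peak. HES6 led with a fold enrichment of 10.2, followed by HEY1 (7.58), which had 6 peaks near its TSS, and HEY2 was lowest (2.56). HES2, HES3, HES5 and NRARP had none. HEY1 and HEY2, which belong to the same repressor family as HES1, had peak densities of 16.1 and 16.7 per 100 kb, next to 15.6 for HES1, while HES5 had 0.985 per 100 kb. High density was not general in this family. HES6, HES7 and HES3 had 11.7, 9.66 and 6.90 per 100 kb, HEYL 5.16, HES4 2.96 and HES2 2.67. The median of these 10 target genes, NRARP (0.974) included, was 6.03.

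**Figure D5:**
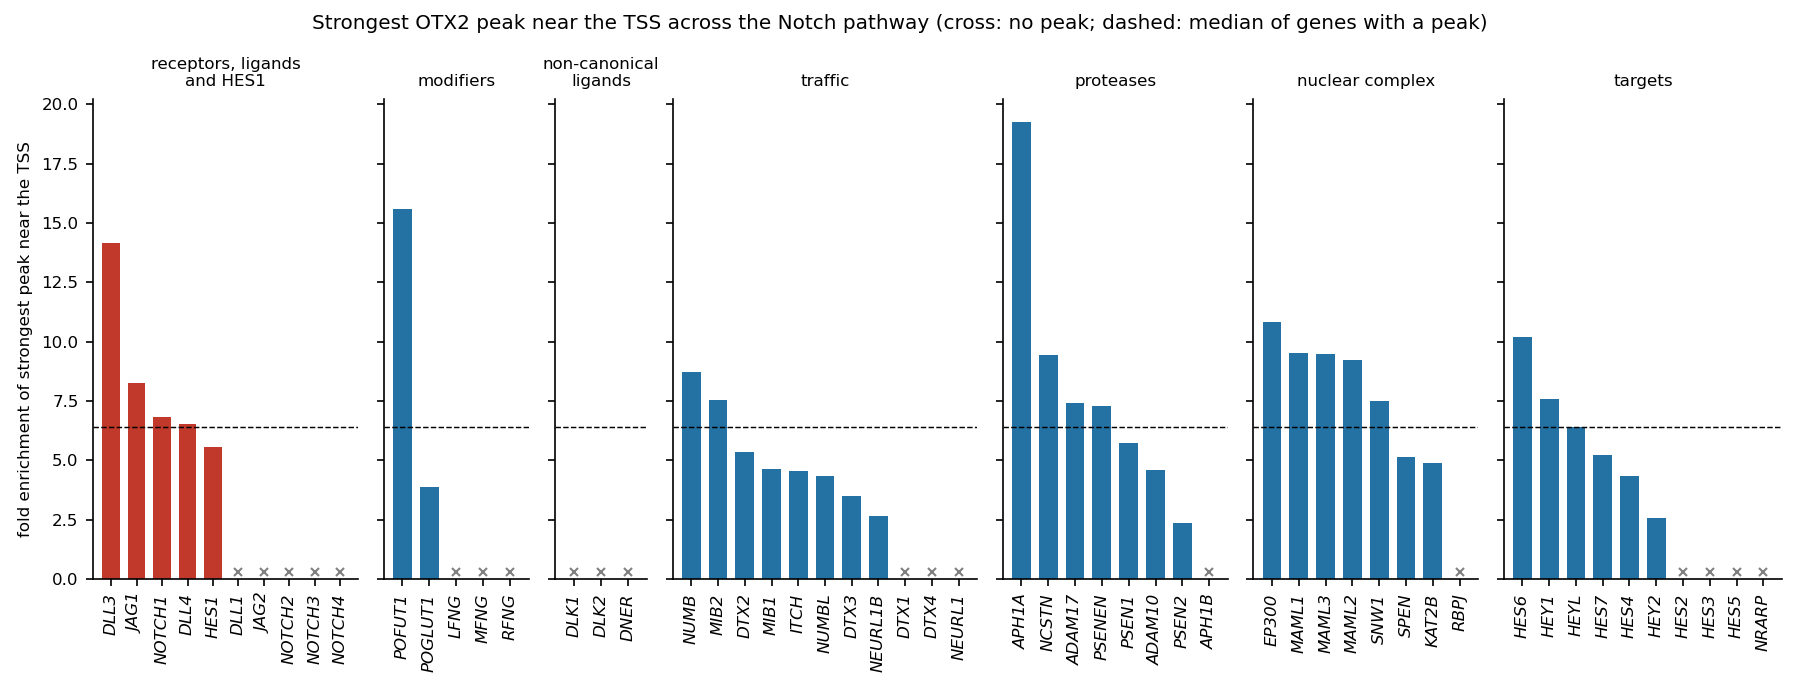
Bars give the fold enrichment of the strongest OTX2 peak near the TSS for each of the 10 Notch genes (red) and the 45 other pathway genes by role (blue); crosses mark genes without such a peak and the dashed line the median of 6.39 over all genes with one. With the window at the start of the gene record, DLL3 (14.2) is the highest of the 10, and APH1A (19.3) and POFUT1 (15.6) are the highest of the rest.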

How the data were processed

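OTX2-bound DNA was profiled by ChIP-Seq in OTX2-expressing D283 tumorspheres, with 1 ChIP and 1 input library. Per the submitters' processing notes and the file header, the authors aligned reads with Bowtie2 2.2.4 (GRCh38) and ran MACS2 2.1.0.20140616 to call peaks at a q-value of 0.05, keeping 1 fragment per position. The deposited pileup is a signal, with the larger library scaled towards the smaller one per the file header. The step that stands for 1 fragment was inferred from the values. Fold enrichment as deposited is the ratio of pileup to local input, each with 1 added, from which the local input was computed. The deposited −log10 q-values served as a stricter threshold. Gene records came from GENCODE release 44, whose entries give the GRCh38 position of each exon, so no coordinate was converted. A peak counted where at least 1 bp overlapped a window. RefSeq sequences were from GRCh38.p14. Sequence under peaks outside promoters was not used here. The members and lists were chosen with earlier results of these data known. All 10 members were named. In each role of the wider list the 2 highest and the lowest TSS fold enrichments and every gene without a TSS peak were named. The remaining HES and HEY genes were named for their density, and other genes where a peak lay at them. An item of the wider list is not reported here. The counting was tested on simulated peaks. Scripts ran in Python 3.11.15 with scipy 1.17.1 and pandas 2.3.3. Alternatives were peak thresholds, windows, extensions and TSS definitions.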

Additional observations from a re-analysis of the deposited data

How the results depend on the processing

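The number of Notch genes with a TSS peak stayed between 4 and 7 out of 10 under the alternatives, except that it was 8 at the start of any annotated transcript. The canonical transcript as the TSS was chosen after seeing the data. Of the 45 other pathway genes, 19 had a TSS peak of at least 5-fold enrichment. Of all protein-coding genes, 38.5% had a TSS peak at a fold enrichment of 5 or more, 52.0% at a −log10 q of 5 or more, 56.3% when the summit had to lie inside, 46.9% within 1 kb of the TSS, 66.6% at any transcript start and 58.5% at the canonical start. The 86 peaks of the Notch genes became 55 at a fold enrichment of 5 or more, 37 in the unextended gene records and 54 when the nearest protein-coding TSS had to be the gene's own. Their density, 6.05 per 100 kb over all 10 extended records, was 3.87 at a fold enrichment of 5 or more, 7.66 with 20 kb extensions and 8.76 without. A peak in the extended record was held by 89.7% of protein-coding genes at a fold enrichment of 5 or more, 93.0% at a −log10 q of 5 or more, 88.1% with 20 kb, 97.3% with 100 kb and 69.5% without extension. The fold enrichments rest on a single input library of 22521186 fragments kept, and the effect of its depth on them was not tested. No paired analysis was possible because each group held a single library.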
